A study of Homo sapiens with 12 samples.

Results

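S100 proteins are small calcium sensors, and 10 of their genes were followed here in the human liver cancer cell line SNU449 in the presence or absence of the receptor tyrosine kinase Axl and of acquired resistance to Regorafenib (Rego). The genes were chosen by symbol as S100A2, S100A3, S100A4, S100A6, S100A10, S100A11, S100A13, S100A14, S100A16 and S100P. Of these, 9 were among the 15601 genes listed with values in 12 libraries. S100A14 was listed in 0 of the 8 tables and has no value.

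S100 proteins carry a pair of EF-hands, the helix-loop-helix fold that holds a calcium ion, and most work as dimers that open a binding face for a partner when calcium rises. Annexins, which attach to membranes in a calcium-dependent way, are among their best known partners, together with cytoskeletal proteins, and several S100 proteins are also released from cells and bind receptors such as RAGE (AGER) and TLR4. In carcinomas S100A4 and S100A6 are best known from motile, mesenchymal-like cells.

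The study asked which genes accompany acquired resistance to Rego, a multi-kinase inhibitor used against hepatocellular carcinoma, and which of these depend on Axl. SNU449 is an established line of human hepatocellular carcinoma. SNU449-ctrl were Axl-proficient cells without resistance, SNU449-Rego were Axl-proficient cells in which Rego resistance had been induced, SNU449-Axl-KO-ctrl lacked Axl after CRISPR/Cas9 editing and had no resistance induced, and SNU449-Axl-KO-Rego combined the loss of Axl with Rego resistance. Resistance had been built up in steps of dose until the cells grew at 2 times the IC50. All 4 groups were grown in the same medium, but the labels of the resistant groups read plusRego. Whether Rego was present at harvest is not stated here, so that acquired resistance and exposure to the drug cannot be told apart. Each group was sequenced in 3 libraries, which are technical triplicates of 1 cell population, so that p-values cover the spread between libraries only, and an effect of Rego or Axl and a chance difference between populations cannot be told apart. How many edited clones stand behind the cells without Axl was not given in the sources used here.

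The libraries were 3′-end mRNA libraries (QuantSeq), which read each transcript near its end, so that counts do not grow with transcript length. The value of a gene in a library is a score, namely 2 raised to its variance-stabilized, batch-corrected level, and a difference of 1 in log2(value + 1) is a doubling on this scale. The scale compresses low genes, and the fold changes of weakly expressed members on it can differ from those of counts, in S100A3 even in direction. AXL, the edited gene, had library values between 715 and 1271 in the 6 libraries of Axl-proficient cells and between 33 and 53 in the 6 libraries of Axl-KO cells, as their labels require. Of the markers of other cell types, 5 of 5 mesenchymal genes (VIM, CDH2, FN1, SPARC and ZEB1) were listed with mean normalized counts between 158 and 18945, 2 of 5 epithelial genes (KRT8 and KRT18), 3 of 10 hepatocyte genes, with ALB and HNF4A not listed, 3 of 4 leukocyte genes with a highest count of 6.19, and 0 of 3 endothelial genes. FGB was the 1 hepatocyte marker over a count of 10, and its mean level was 4.74 in SNU449-ctrl, 4.85 in SNU449-Rego, 5.80 in SNU449-Axl-KO-ctrl and 8.29 in SNU449-Axl-KO-Rego on the log2(value + 1) scale. In the same order, KRT8 stood at 7.41, 7.30, 8.20 and 8.89, and KRT18 was lowest in SNU449-ctrl (9.77) and highest in SNU449-Axl-KO-Rego (10.29). Of the mesenchymal genes, FN1 stood at 11.10, 8.86, 8.85 and 11.32, CDH2 at 8.88, 8.44, 8.83 and 8.17, and SPARC at 10.65, 9.93, 9.81 and 9.62, while VIM stayed between 13.96 and 14.36 and ZEB1 between 7.22 and 7.65. The markers thus did not share 1 order of the groups, and their part in the S100 values was not tested. The depth of each library is unknown, since the tables hold no counts per library, and the mean normalized counts summed to 4.51e+06 over all genes.

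By mean normalized count over the 12 libraries, which is a level and not a difference, S100A6 was the most abundant member with 7672. S100A10 followed with 2595 and S100A11 with 1480, so that the 3 members best known as annexin partners led the family. S100A16 (444), S100A13 (401) and S100A4 (150) were intermediate, whereas S100A2 (37.3), S100A3 (24.4) and S100P (8.31) were weakly expressed. Of 11 further S100 genes, which include S100A8, S100A9 and S100B, 0 were listed. The 8 members that could be solved for each group made up 0.175% of all mean normalized counts in SNU449-ctrl, 0.276% in SNU449-Rego, 0.293% in SNU449-Axl-KO-ctrl and 0.383% in SNU449-Axl-KO-Rego. S100A6 alone accounted for 0.0679%, 0.172%, 0.176% and 0.256% in the same order. These shares come from group means solved out of the authors' means over pairs of groups, and have no replicate error. In bulk RNA, fewer cells that express a gene and less RNA per cell cannot be told apart.

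In the annotation of GRCh38, 8 members lie on the minus strand of chromosome 1, where S100 genes form a cluster. S100A10 (ENSG00000197747.9) spans 151982915 to 151993859 and S100A11 (ENSG00000163191.6) spans 152032506 to 152047907. Further along lie S100A6 (ENSG00000197956.10) at 153534599 to 153536244, S100A4 (ENSG00000196154.12) at 153543613 to 153550136, S100A3 (ENSG00000188015.10) at 153547329 to 153549258 and S100A2 (ENSG00000196754.13) at 153561108 to 153567890. S100A16 (ENSG00000188643.11) at 153606886 to 153613145 and S100A13 (ENSG00000189171.15) at 153618787 to 153631360 close the row, whereas S100P (ENSG00000163993.7) lies on the plus strand of chromosome 4 at 6693878 to 6697170. S100A3 sits inside the span of S100A4, but their exons share no base. Exons of S100A13 share 24.2% of their bases with ENSG00000271853 on the same strand and 10.6% with S100A1 on the opposite strand, and the strand setting of the counting was not given in the sources used here, so the values of S100A13 are uncertain in their source.

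**Figure D1:**
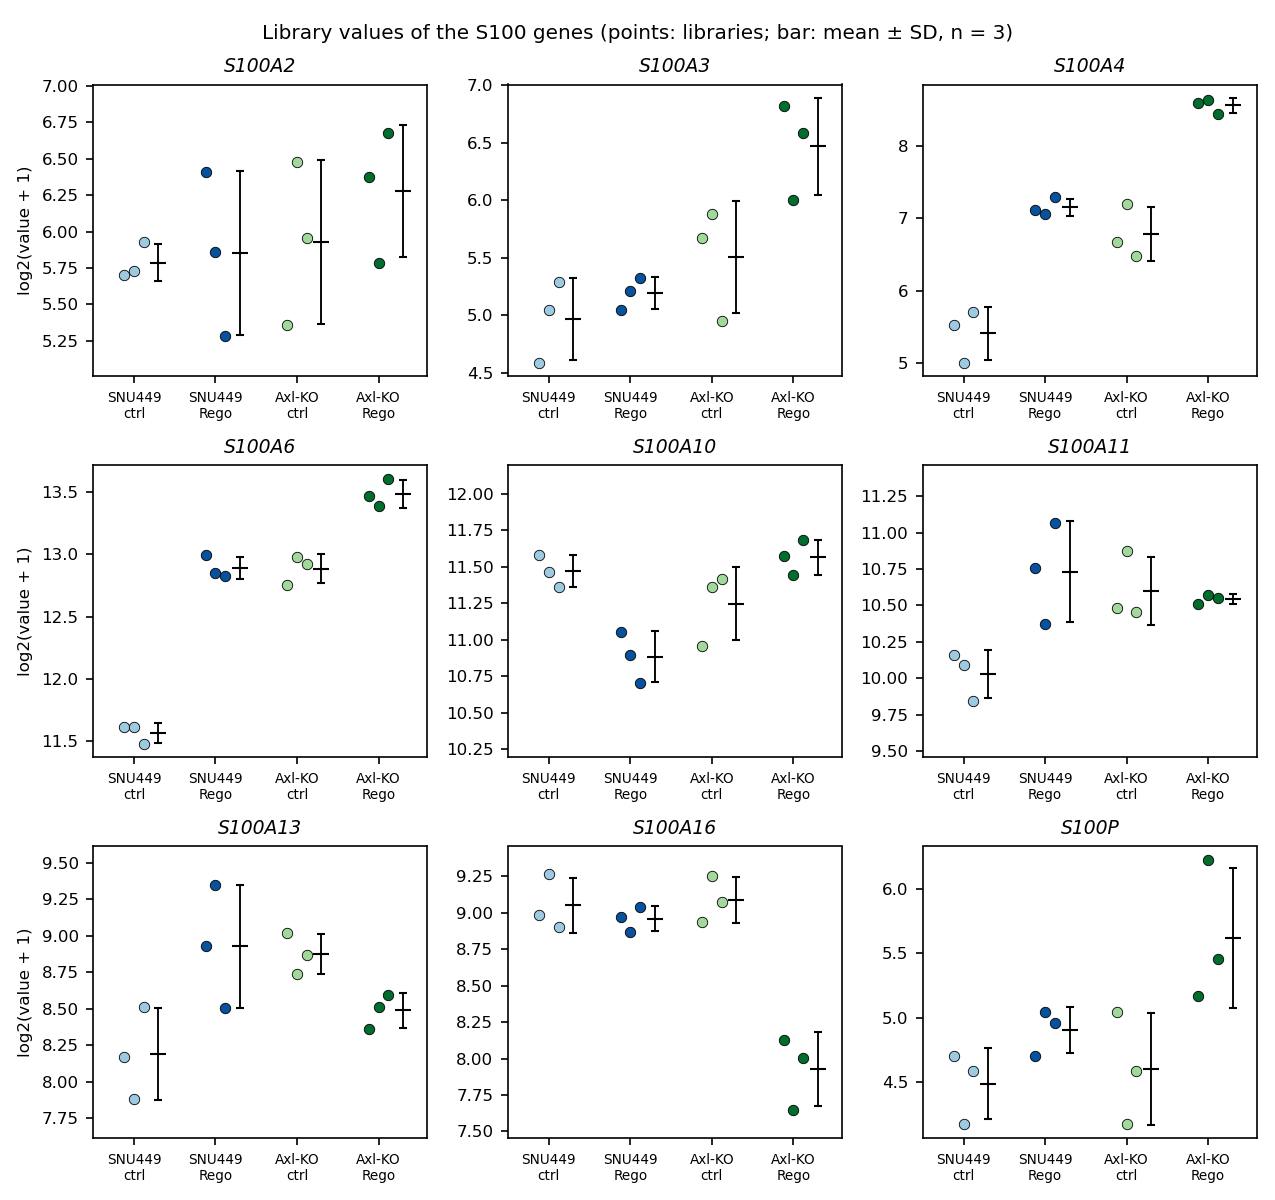
Library values of the 9 S100 genes as log2(value + 1) in the 4 groups; each point is 1 library and the bars give mean ± SD (n = 3). Each panel has its own vertical range. S100A4 and S100A6 are lowest in all 3 SNU449-ctrl libraries and highest in all 3 SNU449-Axl-KO-Rego libraries, and S100A16 is lowest in the SNU449-Axl-KO-Rego libraries.

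The question of each comparison was whether the members differed between groups by more than the libraries of a group. Rego resistance in SNU449 changed 3 of 9 members, all higher (S100A4, S100A6 and S100A11), by limma with Benjamini-Hochberg adjusted p under 0.05 over all genes, where 7.81% of all genes were called, 4.31% as higher and 3.5% as lower. Their median log2 fold change was 0.41, against a median of -0.000102 over all genes, and the libraries of 4 members did not overlap between the groups, as they did not for 27.9% of all genes. In the Axl-KO background, Rego resistance changed 4 of 9 members, S100A4, S100A3 and S100P being higher and S100A16 lower, where 4.35% of all genes were called, 2.54% as higher and 1.81% as lower. Here the median was 0.35 against 0.01, and 7 members did not overlap, against 29.1% of all genes. Among these, S100P was listed only in pair tables that hold SNU449-Axl-KO-Rego, so that its call and its lack of overlap are not independent of the filter.

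Loss of Axl in control cells changed 2 of 9 members, S100A4 and S100A6, both higher, where 7.45% of all genes were called, 4.03% as higher and 3.43% as lower. The median of the members was 0.53 and that of all genes was 0.00350, and the libraries of 4 members did not overlap, against 27.9% of all genes. Loss of Axl in Rego-resistant cells changed 4 of 9 members, with S100A4, S100A3 and S100A10 higher and S100A16 lower, where 4.37% of all genes were called, 2.44% as higher and 1.93% as lower. The median was 0.60 against 0.01, and 6 members did not overlap, against 28% of all genes. S100P was among these 6, and its lack of overlap is here again not independent of the filter. Each group enters 2 of the 4 comparisons, so that these counts are not independent of each other. The direction of the genes called depended on the scaling, as 58.4%, 54.0% and 55.9% of all genes called were higher in the second, the third and the fourth comparison, but 84.2%, 84.5% and 96.2% when the libraries were centred on the spike-in RNAs. No called member changed direction under this or the upper-quartile scaling.

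**Figure D2:**
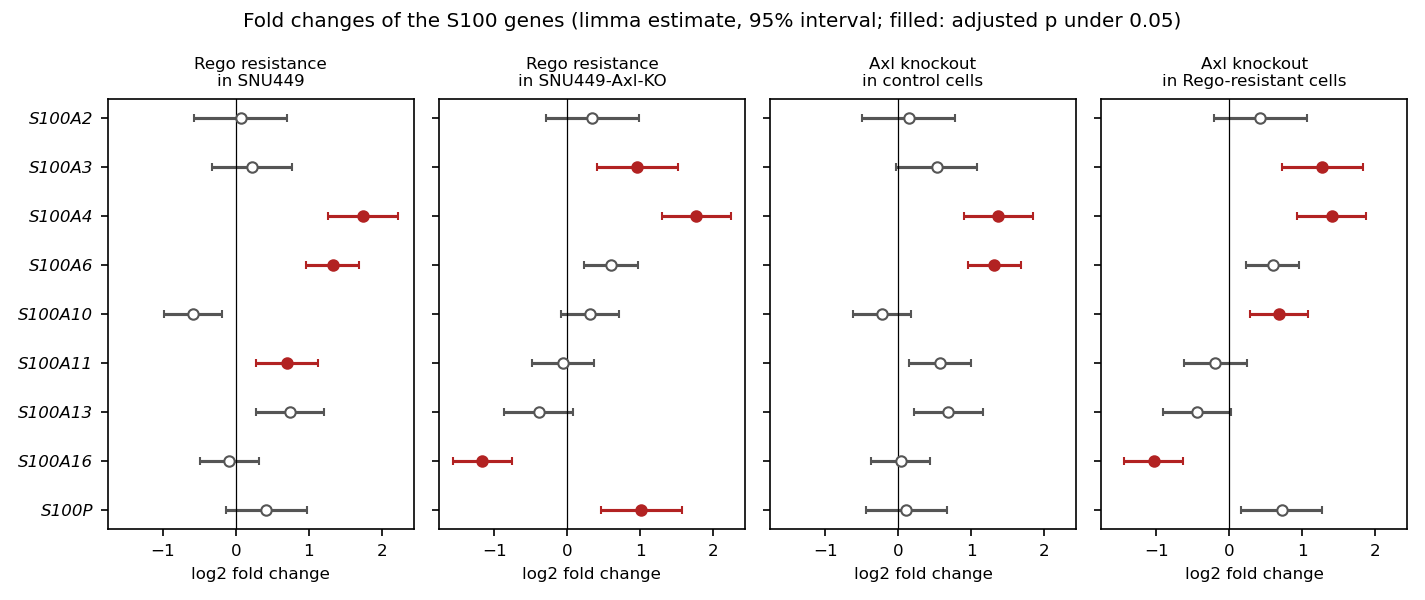
Log2 fold changes of the 9 S100 genes in the 4 comparisons between groups, from limma on log2(value + 1) over 12 libraries; bars are 95% confidence intervals and filled red points have an adjusted p under 0.05. S100A4 is higher in all 4 comparisons, with estimates between 1.37 and 1.77, and S100A16 is lower in the 2 comparisons that involve SNU449-Axl-KO-Rego cells.

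S100A4, known as metastasin or fibroblast-specific protein, binds the heavy chain of non-muscle myosin IIA and is a common marker of mesenchymal cells. Its library values were 45, 31 and 51 in SNU449-ctrl, 137, 132 and 155 in SNU449-Rego, 101, 146 and 88 in SNU449-Axl-KO-ctrl, and 385, 397 and 345 in SNU449-Axl-KO-Rego. The SNU449-ctrl libraries lay below and the SNU449-Axl-KO-Rego libraries above all others, whereas the SNU449-Rego and SNU449-Axl-KO-ctrl libraries overlapped. On the log2(value + 1) scale the group means were 5.41 ± 0.36, 7.15 ± 0.12, 6.78 ± 0.37 and 8.55 ± 0.11 (SD, n = 3) in that order, and the lowest and the highest differed by 3.15.

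Rego resistance raised S100A4 by a log2 fold change of 1.74 (SE 0.226) in SNU449, with an adjusted p of 8.19e-05 (limma, Benjamini-Hochberg), which ranked 58th from the top of 15601 genes. In Axl-KO cells the rise was 1.77, with an adjusted p of 0.000152 in the same limma fit, and it ranked 34th. The rise on loss of Axl was 1.37 in control cells (limma adjusted p = 0.000971) and 1.40 in Rego-resistant cells (limma adjusted p = 0.00120). All 4 calls were kept under every setting tried and without any single library.

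The effect of Rego resistance on S100A4 in Axl-KO cells exceeded that in SNU449 cells by 0.03, with a 95% interval from -0.64 to 0.70 (limma, adjusted p = 0.978). Differences of up to 0.70 on the log2 scale in either direction were thus not resolved by these libraries. Solved from the authors' mean normalized counts, which are not compressed at low levels, the group means of S100A4 were 11.1, 104, 106 and 392, with a largest residual of 4.58 counts over the 6 pair tables. On this scale the ratio of Rego-resistant to control cells was 9.38 in SNU449 and 3.70 in Axl-KO cells, without replicate error, so that the similar log2 effects hold for the variance-stabilized scale. The residual is large beside the 11.1 counts of SNU449-ctrl, and the ratio against that group is accordingly uncertain.

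The window of 250 bases before to 50 after the RefSeq start of S100A4 (GRCh38.p14, minus strand, chr1:153545757-153546056) is shown since S100A4 moved most among the members. It lies inside the annotated span of the gene, whose longest transcript starts further upstream. A TATA box, searched as TATAAA on both strands and present in 11.5% of 35116 such windows, is in capitals.
S100A4: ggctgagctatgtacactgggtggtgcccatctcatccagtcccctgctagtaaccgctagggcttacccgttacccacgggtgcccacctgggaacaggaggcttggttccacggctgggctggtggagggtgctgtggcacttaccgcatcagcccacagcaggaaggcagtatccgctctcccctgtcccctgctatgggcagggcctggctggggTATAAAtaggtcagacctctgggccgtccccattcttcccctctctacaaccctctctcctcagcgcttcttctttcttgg

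S100A6, or calcyclin, binds annexin A2, annexin A11 and the ubiquitin ligase adaptor CACYBP, and is known from proliferating and mesenchymal cells. It had library values of 3131, 3132 and 2843 in SNU449-ctrl, 8169, 7389 and 7264 in SNU449-Rego, 6901, 8087 and 7771 in SNU449-Axl-KO-ctrl, and 11358, 10711 and 12490 in SNU449-Axl-KO-Rego. As for S100A4, SNU449-ctrl lay below and SNU449-Axl-KO-Rego above all other libraries, and the groups with either Rego resistance or Axl loss alone overlapped. Their log2 means of 12.89 ± 0.09 and 12.89 ± 0.12 (SD, n = 3) differed by 0.00526.

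Rego resistance in SNU449 raised S100A6 by 1.32 (SE 0.174, limma adjusted p = 8.59e-05), which ranked 134th of all genes, and loss of Axl in control cells raised it by 1.32 (limma adjusted p = 0.000116), which ranked 118th. Both calls were kept under every setting and without any single library. Between SNU449-Axl-KO-ctrl and SNU449-Axl-KO-Rego the estimate was 0.60 with a limma adjusted p of 0.0562, and between SNU449-Rego and SNU449-Axl-KO-Rego it was 0.60 with 0.0592. These missed the threshold although the libraries did not overlap, and passed it when only genes with a mean normalized count of at least 10 were tested (limma adjusted p = 0.0469 and 0.0498) or with spike-in centring (0.0492 and 0.0108). The effect of resistance in Axl-KO cells minus that in SNU449 was -0.72 (SE 0.246), which did not pass the test (limma adjusted p = 0.0954). Solved group means of the normalized counts were 2936, 6831, 8493 and 12819, with ratios of 2.33 and 1.51 for Rego resistance in the 2 backgrounds.

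The promoter window of S100A6 (GRCh38.p14, minus strand, chr1:153535942-153536241) is given for comparison with that of S100A4, whose order of groups it shared. Capitals mark 3 matches of the GC box GGGCGG on either strand, of which the last overlaps the one before it. GGGCGG was present in 45.0% of all windows and in 6 of 13 windows of the members. The window held 31 CG dinucleotides and that of S100A4 held 8, against a median of 14 over all windows.
S100A6: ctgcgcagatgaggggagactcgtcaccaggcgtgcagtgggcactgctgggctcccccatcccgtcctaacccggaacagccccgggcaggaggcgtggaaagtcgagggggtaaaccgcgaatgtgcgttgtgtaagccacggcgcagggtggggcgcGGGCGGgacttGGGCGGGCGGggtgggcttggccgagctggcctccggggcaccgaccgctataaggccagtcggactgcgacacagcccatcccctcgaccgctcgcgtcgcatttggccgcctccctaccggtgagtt

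**Figure D3:**
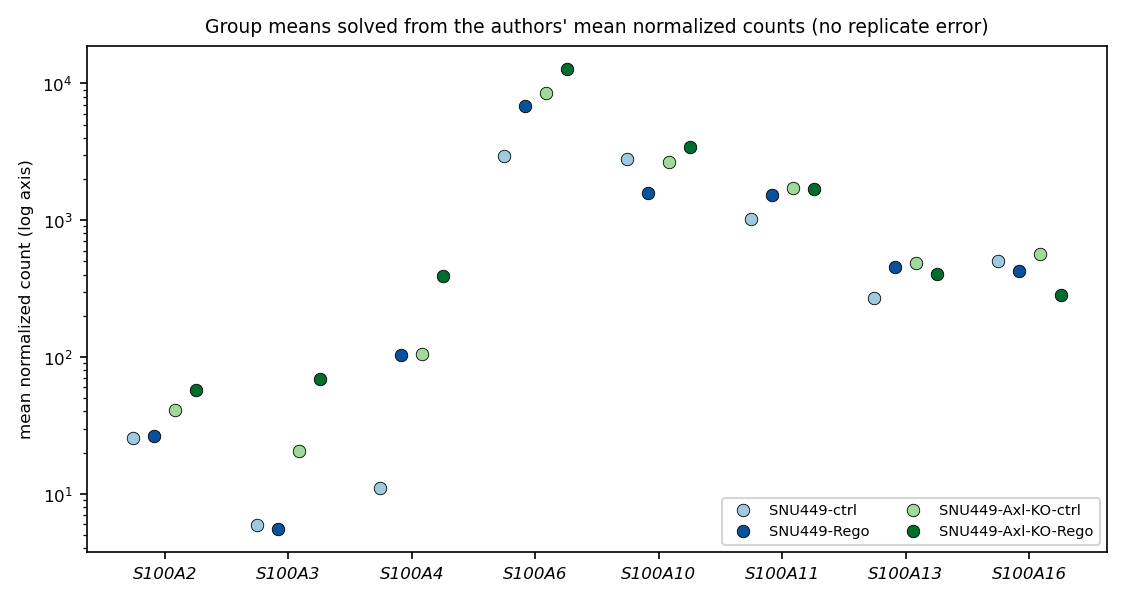
Group means of normalized counts of 8 S100 genes on a log axis, solved from the authors' means over pairs of groups and shown without replicate error; S100P was not solved. S100A4 runs from 11.1 in SNU449-ctrl to 392 in SNU449-Axl-KO-Rego, S100A6 from 2936 to 12819, and S100A16 is lowest in SNU449-Axl-KO-Rego with 282.

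The genes whose 12 library levels were most like those of S100A4 were GATM (Pearson r = 0.974), PCF11 (0.965) and the long noncoding RNA ENSG00000256802 (0.956). For S100A6 they were CMBL (r = 0.977), LMO4 (0.966) and again GATM (0.961). The 12 points are 3 libraries of 4 populations each, so that r mostly describes the order of 4 groups. The spans differed, as the mean log2 level of GATM ran from 5.59 in SNU449-ctrl to 6.76 in SNU449-Axl-KO-Rego and that of LMO4 from 7.83 to 10.00.

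S100A10 and S100A11 are annexin partners. S100A10, or p11, lacks working calcium-binding loops and joins annexin A2 in a tetramer that binds plasminogen at the cell surface. Its library values were 3064, 2827 and 2632 in SNU449-ctrl, 2127, 1905 and 1666 in SNU449-Rego, 1991, 2638 and 2740 in SNU449-Axl-KO-ctrl, and 3045, 2782 and 3289 in SNU449-Axl-KO-Rego. SNU449-Rego was the lowest group by its mean, and its libraries lay below those of SNU449-ctrl and SNU449-Axl-KO-Rego but overlapped with SNU449-Axl-KO-ctrl.

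S100A10 was higher by 0.68 in SNU449-Axl-KO-Rego than in SNU449-Rego (SE 0.189, limma adjusted p = 0.0469). This call was lost without any 1 of the 6 libraries of the 2 groups (limma adjusted p from 0.0730 to 0.200) and without a variance trend (0.0501). Rego resistance gave -0.59 in SNU449 (limma adjusted p = 0.0670) and 0.32 in Axl-KO cells (0.397). The difference of these effects was 0.90 (SE 0.267) and missed the threshold (limma adjusted p = 0.0536), and it passed with upper-quartile scaling (0.0468) and with the count minimum of 10 (0.0475).

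S100A11, or calgizzarin, binds annexin A1 and annexin A2 and acts in membrane repair. It stood at 1142, 1090 and 917 in SNU449-ctrl, at 1733, 1328 and 2137 in SNU449-Rego, at 1428, 1872 and 1400 in SNU449-Axl-KO-ctrl, and at 1457, 1519 and 1502 in SNU449-Axl-KO-Rego. All 3 SNU449-ctrl libraries lay below the other 9, which overlapped. Rego resistance in SNU449 raised S100A11 by 0.70 (SE 0.204, limma adjusted p = 0.0409). The call was lost on leaving out 5 of the 6 libraries, all but SNU449-Rego replicate 2 (limma adjusted p from 0.0587 to 0.238), in the table of this pair alone (0.127) and with spike-in centring (0.0544). Loss of Axl in control cells gave 0.57 (limma adjusted p = 0.0996).

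The annexins were compared as a list, of which 10 of 12 genes were tested. Rego resistance in SNU449 raised 1 and lowered 2 of them, where 7.81% of all genes were called, and Rego resistance in Axl-KO cells raised 4 and lowered 0, against 4.35%. Axl loss in control cells raised 1 and lowered 2, against 7.45%, and in Rego-resistant cells it raised 2 and lowered 0, against 4.37%. These counts include ANXA13, at 36 to 47 in SNU449-Axl-KO-Rego and 20 to 26 elsewhere, and ANXA10, highest in SNU449-ctrl. Both can have passed the filter of low genes through that group, so that their calls are no independent support. With a count minimum of 10, limma called 2, 3, 2 and 1 of 8 annexins, against 1089, 652, 1068 and 609 of 11656 genes. The 4 annexins called with Rego resistance in Axl-KO cells became 2 without SNU449-Axl-KO-ctrl replicate 2 or SNU449-Axl-KO-Rego replicate 1 or 2. In these fits the calls over all 15601 genes fell from 678 to 243, 307 and 205. Leaving out 1 library gave 2 to 3, 2 to 3 and 1 to 2 annexins in the first, the third and the fourth comparison. Over all genes it gave 740 to 968, 540 to 1033 and 219 to 394 calls there, against 1219, 1163 and 682 in the full fit. The medians of the list lay between -0.20 and 0.02 in the 4 comparisons, against medians between -0.000102 and 0.01 over all genes.

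ANXA2, the tetramer partner of S100A10 and the most abundant annexin with a mean normalized count of 7684, was called in 0 of these comparisons, with estimates between -0.27 and -0.08. ANXA1, which binds S100A11, had library values of 2520, 2491 and 2767 in SNU449-ctrl, 1349, 1346 and 1125 in SNU449-Rego, 1212, 1022 and 1063 in SNU449-Axl-KO-ctrl, and 1930, 2320 and 2404 in SNU449-Axl-KO-Rego. It was thus high in SNU449-ctrl and SNU449-Axl-KO-Rego and low in the other groups, with no overlap between the high and the low libraries. ANXA1 fell by 1.03 with Rego resistance in SNU449 (limma adjusted p = 0.00125) and rose by 1.01 with Rego resistance in Axl-KO cells (0.00301). The difference of the effects was 2.04 (SE 0.254, limma adjusted p = 9.68e-05).

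ANXA3 had library values of 35, 29 and 20 in SNU449-ctrl, 418, 257 and 326 in SNU449-Rego, 53, 128 and 71 in SNU449-Axl-KO-ctrl, and 260, 216 and 446 in SNU449-Axl-KO-Rego. Both resistant groups lay above both control groups. The log2 fold change with Rego resistance was 3.54 in SNU449 (limma adjusted p = 1.31e-06) and 1.89 in Axl-KO cells (0.00201), and the effect in Axl-KO cells minus that in SNU449 was -1.65 (limma adjusted p = 0.0361). The mean level in SNU449-ctrl, 4.82, was near the floor of the scale, so that the size of this difference holds for the compressed scale only. ANXA5 rose by 0.86 in Axl-KO cells (limma adjusted p = 0.00736), whereas the estimate in SNU449 was -0.14 (0.707), and the difference of 0.999 passed the test (0.0197). Such a difference was called for 4 of 10 annexins, against 5.87% of all genes. This count fell to 1 without SNU449-ctrl replicate 2, SNU449-Rego replicate 1, SNU449-Axl-KO-ctrl replicate 2 or SNU449-Axl-KO-Rego replicate 1 or 2. The calls over all 15601 genes fell as well, from 916 to 751, 642, 532, 583 and 523 in the same order. In the other fits with 1 library left out, 2 to 4 of 10 annexins were called, so that the count depended on the library left out. ANXA13, also called for the difference between the backgrounds (limma adjusted p = 0.0326), had a mean normalized count of 3.79 only. ANXA10, with 2.98, was called with Rego resistance in SNU449 and with Axl loss in control cells, but not for the difference (limma adjusted p = 0.132).

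**Figure D4:**
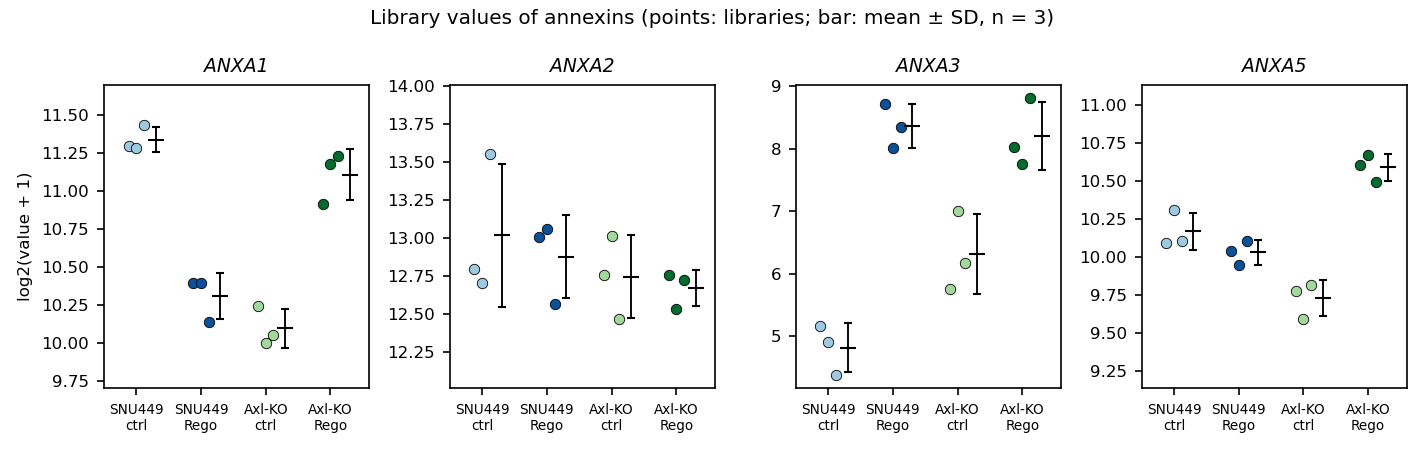
Library values of ANXA1, ANXA2, ANXA3 and ANXA5 as log2(value + 1) in the 4 groups; points are libraries and bars give mean ± SD (n = 3), with a separate vertical range per panel. ANXA1 is high in SNU449-ctrl and SNU449-Axl-KO-Rego and low in the other groups, ANXA3 is higher in both resistant groups, and the ANXA2 libraries overlap between all groups.

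S100A16 is a widely expressed member with weak calcium binding in one of its EF-hands. It had library values of 505, 613 and 477 in SNU449-ctrl, 501, 465 and 524 in SNU449-Rego, 488, 608 and 538 in SNU449-Axl-KO-ctrl, and 279, 199 and 256 in SNU449-Axl-KO-Rego. The SNU449-Axl-KO-Rego libraries lay below all others, and the other 9 libraries overlapped.

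S100A16 fell by 1.16 with Rego resistance in Axl-KO cells (SE 0.193, limma adjusted p = 0.00173), the 70th lowest estimate of all genes, and this call was kept under every setting and without any single library. Against SNU449-Rego, the log2 fold change of SNU449-Axl-KO-Rego cells was -1.03 (limma adjusted p = 0.00433), and the adjusted p was 0.0587 without SNU449-Axl-KO-Rego replicate 2, the lowest library. In Axl-proficient cells the estimate of the Rego effect was -0.09 with a 95% interval from -0.50 to 0.31. The effect in Axl-KO cells minus that in SNU449 was -1.07 (SE 0.272, limma adjusted p = 0.0251). Such a difference was called for 2 of 9 members, both lower, and for 5.87% of all genes, 2.92% as higher and 2.95% as lower. Without 1 of 6 libraries, namely replicates 1 and 3 of SNU449-ctrl and of SNU449-Rego, replicate 2 of SNU449-Axl-KO-ctrl and replicate 2 of SNU449-Axl-KO-Rego, the limma adjusted p rose to between 0.0546 and 0.0991, and with spike-in centring to 0.0942. Solved group means were 507, 427, 563 and 282, with ratios of 0.501 for Rego resistance in Axl-KO cells, 0.842 for Rego resistance in SNU449 and 0.661 for Axl loss in resistant cells. The corresponding folds of the scores were 0.448, 0.939 and 0.489, so that the last of these differences, and that between the backgrounds, were smaller on counts.

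The window at the RefSeq start of S100A16 that lies furthest upstream (GRCh38.p14, minus strand, chr1:153613088-153613387) is given since S100A16 was the member lower in resistant Axl-KO cells. Capitals mark the TEAD-type motif GGAATG on either strand, which was present in 14.0% of all windows and in 2 of 13 windows of the members, both of S100A16.
S100A16: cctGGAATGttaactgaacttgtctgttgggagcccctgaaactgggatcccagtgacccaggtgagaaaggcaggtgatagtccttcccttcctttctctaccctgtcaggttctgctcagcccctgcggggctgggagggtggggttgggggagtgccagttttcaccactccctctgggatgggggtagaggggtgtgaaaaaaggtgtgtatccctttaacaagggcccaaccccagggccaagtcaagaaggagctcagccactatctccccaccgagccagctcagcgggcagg

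S100A13 takes part in the release of FGF1 and interleukin 1 alpha, which lack a signal peptide. Its library values were 287, 235 and 364 in SNU449-ctrl, 487, 650 and 362 in SNU449-Rego, 517, 426 and 467 in SNU449-Axl-KO-ctrl, and 327, 364 and 385 in SNU449-Axl-KO-Rego. SNU449-Rego replicate 3 and SNU449-ctrl replicate 3 lay side by side at 362 and 364, so that these groups overlapped. The SNU449-Axl-KO-ctrl libraries lay above those of SNU449-ctrl and of SNU449-Axl-KO-Rego. No comparison between 2 groups passed the test, the nearest being Rego resistance in SNU449 with 0.74 (limma adjusted p = 0.0505) and Axl loss in control cells with 0.69 (0.0713).

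In Axl-KO cells the estimate for Rego resistance on S100A13 was -0.39 (limma adjusted p = 0.382), and the difference between the backgrounds was -1.13 (SE 0.317, limma adjusted p = 0.0420). This second of 2 called differences was lost without any 1 of 10 of the 12 libraries (0.0674 to 0.139), being kept without SNU449-ctrl replicate 3 or SNU449-Rego replicate 3, and with spike-in centring (0.0817). FGF1, its cargo, was lower in SNU449-Axl-KO-Rego than in SNU449-Axl-KO-ctrl cells (log2 fold change -0.78, limma adjusted p = 0.0364), with a mean log2 level between 4.81 and 5.78 in the 4 groups.

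**Figure D5:**
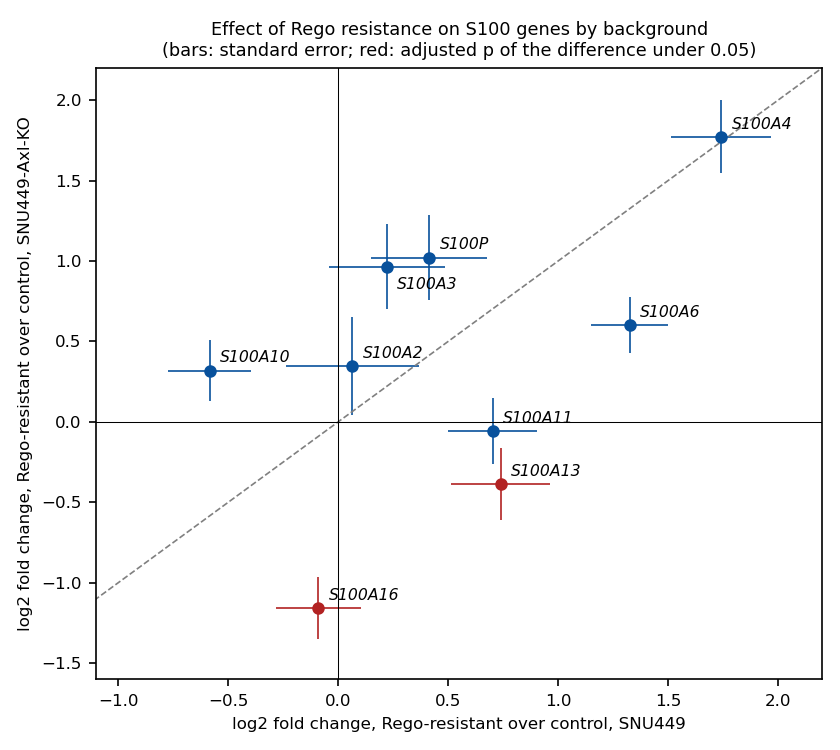
Log2 fold change of each S100 gene with Rego resistance in SNU449 (horizontal) and in SNU449-Axl-KO (vertical); bars are standard errors, the dashed line marks equal effects, and red points have an adjusted p under 0.05 for the difference. S100A4 lies on the line at 1.74 and 1.77, and S100A16 and S100A13 lie below it with differences of -1.07 and -1.13.

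S100A3, S100A2 and S100P were weakly expressed, and their libraries spread widely. S100A3 is rich in cysteine and best known from the cuticle of hair. It stood at 23, 32 and 38 in SNU449-ctrl, 32, 36 and 39 in SNU449-Rego, 50, 58 and 30 in SNU449-Axl-KO-ctrl, and 112, 63 and 95 in SNU449-Axl-KO-Rego. The SNU449-Axl-KO-Rego libraries lay above all others, which overlapped.

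S100A3 rose by 0.97 with Rego resistance in Axl-KO cells (SE 0.264, limma adjusted p = 0.0451), and by 1.28 in SNU449-Axl-KO-Rego over SNU449-Rego cells (limma adjusted p = 0.00909). The first call was lost on leaving out replicate 1 or 3 of either group (limma adjusted p from 0.0598 to 0.246) and the second without SNU449-Rego replicate 1 or SNU449-Axl-KO-Rego replicate 1 or 3 (0.0522 to 0.0914). Solved group means of S100A3 were 5.90, 5.51, 20.5 and 68.6 normalized counts, with a largest residual of 0.930. Between the backgrounds, the effects of Rego resistance on S100A3 differed by 0.74 (SE 0.374) and did not pass the test (limma adjusted p = 0.290).

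The promoter window of S100A3 (GRCh38.p14, minus strand, chr1:153549209-153549508) is given as that of the gene nested in the span of S100A4. Capitals mark the AP-1-type motif TGANTCA, present in 7.71% of all windows and in 2 of 13 windows of the members, and 1 match of GGGCGG. No TATAAA was found in this window, whereas 3 of 13 member windows had one, those of S100A4, S100P and one of S100A13. These matches describe the letters of the windows only.
S100A3: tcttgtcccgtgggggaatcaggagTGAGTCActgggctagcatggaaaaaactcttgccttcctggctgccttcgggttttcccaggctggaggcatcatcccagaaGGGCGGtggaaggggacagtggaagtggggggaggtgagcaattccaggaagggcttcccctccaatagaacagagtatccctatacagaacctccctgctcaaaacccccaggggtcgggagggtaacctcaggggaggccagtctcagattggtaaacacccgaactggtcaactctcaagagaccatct

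S100P, first found in placenta, binds ezrin and RAGE. It had library values of 25, 17 and 23 in SNU449-ctrl, 25, 32 and 30 in SNU449-Rego, 32, 17 and 23 in SNU449-Axl-KO-ctrl, and 35, 74 and 43 in SNU449-Axl-KO-Rego. The SNU449-Axl-KO-Rego libraries were the highest, with replicate 2 far above the other 2. It was higher by 1.02 with Rego resistance in Axl-KO cells (SE 0.263, limma adjusted p = 0.0342), and the call was lost without replicate 2 or 3 of either group (limma adjusted p from 0.0704 to 0.284). S100P was listed only in those pair tables that hold SNU449-Axl-KO-Rego, so that it passed the filter of low genes through the group where it was highest. Its call is thus no independent support. In SNU449-ctrl its mean level of 4.49 was near the floor of the scale. S100A2, a nuclear member known from epithelial basal cells, ranged from 38 to 101 over all libraries. All groups overlapped, estimates lay between 0.06 and 0.43, and S100A2 was called in 0 comparisons.

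Of 20 further partners and receptors of S100 proteins, 19 were tested. Rego resistance in SNU449 raised 1, BSG (basigin), by 0.90 (limma adjusted p = 0.0418), and lowered 1, PLAT, the tissue plasminogen activator, by a log2 fold change of -0.90 (0.00815), which is 10.5% of the list against 7.81% of all genes. Rego resistance in Axl-KO cells raised TLR4 by 1.003 (limma adjusted p = 0.00413) and lowered FGF1, also 10.5%, against 4.35%. Axl loss in control cells lowered TLR4 by a log2 fold change of -1.95 (limma adjusted p = 3.16e-06), the 1 call there, which is 5.26% of the list against 7.45% of all genes. The mean level of TLR4 in SNU449-Axl-KO-ctrl was 4.48, equal to that of ANXA10 in those libraries and near the floor of the scale, so that its fold change is no bound. Axl loss in Rego-resistant cells changed 0 of 19 by limma, against 4.37% of all genes, with 4 at an unadjusted p under 0.05. With 1 library left out, the counts ranged from 1 to 5, from 1 to 3, from 1 to 4 and stayed at 0 in the 4 comparisons. The calls over all 15601 genes then ranged from 740 to 968, 205 to 519, 540 to 1033 and 219 to 394.

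For the interaction of Rego resistance and background, TLR4 (1.60, limma adjusted p = 0.00127) and PLAT (1.19, 0.0169) were called, which is 10.5% of the list against 5.87% of all genes. The myosin heavy chain MYH9, CACYBP, EZR and AHNAK, which bind S100A4, S100A6, S100P and S100A10 in that order, were called in none of these fits. AGER was not called either, and IL1A was not listed.

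Of 36 other EF-hand genes, 35 were tested. Rego resistance in SNU449 raised 5 and lowered 1, which is 17.1% against 7.81% of all genes. Without SNU449-ctrl replicate 1, 2 or 3 this count of 6 was 6, 3 and 3. Without SNU449-Rego replicate 1, 2 or 3 it was 5, 2 and 1. In the same order 968, 740, 924, 875, 780 and 741 of 15601 genes were called, against 1219 in the full fit. In the table of this pair 1 of 34 was called, against 603 of 13836 genes. The excess over all genes was thus gone without SNU449-Rego replicate 3 and in the pair alone, and it stayed without SNU449-ctrl replicate 1. NUCB1, a Golgi calcium-binding protein, rose by 0.89 (limma adjusted p = 0.0219) and ACTN4, an actin crosslinker, by 0.87 (0.0186), whereas RCN1, a reticulum-resident protein, had -0.93 (0.0145). Rego resistance in Axl-KO cells changed 0 of 35 by limma, against 4.35% of all genes, with 7 at an unadjusted p under 0.05. Axl loss lowered RCN1 by a log2 fold change of -0.97 (limma adjusted p = 0.0118) and NUCB2 by one of -0.57 (0.0452) in control cells, and in Rego-resistant cells it raised EFHD2 by 0.96 (0.0309) and lowered CALM3, a calmodulin gene, with a log2 fold change of -0.76 (0.0164). These calls are 5.71% of the list in either comparison, against 7.45% of all genes in control cells and 4.37% in Rego-resistant cells. The difference between the backgrounds was called for 4 of 35, which is 11.4% against 5.87% of all genes. RCN1 (1.23, limma adjusted p = 0.0269) and NUCB2 (0.92, 0.0263) were higher, EHD2 (-1.14, 0.0216) and CALM3 (-1.09, 0.0120) lower. With 1 library left out this count ranged from 1 to 4, and that of all genes from 523 to 922. The median log2 fold change of the list lay between -0.14 and 0.06 in the 4 comparisons.

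The genes next to the members were counted to see whether the region moved as a whole. Of 27 other genes within 500 kb of a member on chromosome 1, limma called 0 in any of the 4 comparisons, where 7.81%, 4.35%, 7.45% and 4.37% of all genes were called, with 5, 1, 6 and 1 at an unadjusted p under 0.05 in the order given above. Their estimates lay between -0.67 and 0.72, and the medians were 0.03, -0.08, 0.11 and 0.07. For the difference between the backgrounds limma likewise called 0 of 27, against 5.87% of all genes, with 4 at an unadjusted p under 0.05. Of 17 genes near S100P on chromosome 4, 3 were lower with Rego resistance in SNU449 (PPP2R2C, SORCS2 and WFS1), against 3.5% of all genes. Rego resistance in Axl-KO cells changed 0 of 17. With Axl loss in control cells 2 were lower (MRFAP1L1 and WFS1), against 3.43% of all genes. PPP2R2C was the 1 call with Axl loss in Rego-resistant cells, higher by 3.17 (limma adjusted p = 9.72e-07), where 2.44% of all genes were called higher. The difference between the backgrounds was called for 2 of 17, where 2.92% of all genes were called higher. These were PPP2R2C (2.34, limma adjusted p = 0.000857) and MRFAP1L1 (1.05, 0.0169). Over the 44 neighbours on both chromosomes, the calls for Axl loss in control cells went from 2 to 6 with spike-in centring and to 11 without the replicate block. The calls over all 15601 genes rose as well, from 1163 to 1488 and to 2182 under the same settings.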

How the data were processed

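For the 12 QuantSeq libraries, the authors used cutadapt 4.0 for trimming and STAR 2.5.3a for alignment to GRCh38 and counting per gene (GENCODE 40), dropped low genes, and ran DESeq2 with a term for the preparation date. Of 8 deposited tables, 6 covered pairs of groups and 2 all libraries. The deposited library values are scores: variance-stabilized levels, corrected by the authors for the preparation date, then taken as powers of 2 and rounded. The signal of a gene is the mean normalized count that the authors computed over the libraries of a table. The authors' fold changes and p-values were not used.

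Here, 15601 genes of 1 table over all libraries were analysed on the log2(value + 1) scale without the 32 spike-in RNAs. The model (limma 3.58.1, R 4.3.3, functions lmFit and eBayes with a variance trend) held group and replicate number, the latter as a block because the removed preparation effect follows it. A gene was called if its p, adjusted over all genes by the Benjamini-Hochberg method, was under 0.05. Which library had which preparation date was not given in the sources used here. After the correction, the mean of a replicate number deviated by a median of 0.00126 (log2), against 0.122 for a library from its group, and correlations of same-numbered libraries' deviations lay between -0.485 and -0.0906. Group means of normalized counts were solved by least squares from the 6 pair tables. The largest residual of a gene, as a percentage of its mean normalized count over all libraries, had a median of 0.614% over 12878 genes. Promoter windows are from RefSeq (GRCh38.p14), in which 9 members matched. The fit was tested on simulated data.

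The members and gene lists were chosen with earlier results of these data known. The text names all members, AXL, up to 2 risen and 2 fallen genes of greatest change per list and comparison, and the 3 genes most like each of the 2 members with the widest range. AHNAK, AGER, ANXA2, CACYBP, EZR, IL1A, MYH9 and further values of ANXA5, ANXA10 and ANXA13 were named after their values were seen.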

Additional observations from a re-analysis of the deposited data

Results flagged for a closer look

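The effect of Rego resistance on S100A16 differed between the backgrounds by -1.07 on the log2(value + 1) scale (Axl-KO minus SNU449, limma adjusted p = 0.0251), with estimates of -1.16 in Axl-KO and -0.09 in SNU449 cells. It also differed for S100A13, by -1.13 (limma adjusted p = 0.0420), with estimates of -0.39 and 0.74. Both came from the interaction term of the limma fit and rest on 1 population per group.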

How the results depend on the processing

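Of 15 member results that passed the limma threshold, 7 passed under every setting and without any single library, namely S100A4 in all 4 comparisons, S100A6 with Rego resistance in SNU449 and with Axl loss in control cells, and S100A16 with Rego resistance in Axl-KO cells. None of the 15 changed direction under the alternatives run. No interaction could be fitted in the pair tables, and S100P had no value with a count minimum of 10 or in the pair tables of Rego resistance in SNU449 and of Axl loss in control cells.

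Without the replicate block, the members called rose to 5, 5, 4 and 5 in the 4 comparisons and to 4 for the difference between backgrounds, with S100A6 gained for Rego resistance in Axl-KO cells (limma adjusted p = 0.00926) and for Axl loss in resistant cells (0.00968), and the genes called to 2175, 1552, 2182, 1503 and 1826, against 1219, 678, 1163, 682 and 916 with it, for the 4 comparisons in the order of the report and the difference. In the pair tables alone, 603, 818, 603 and 1160 genes were called in the 4 comparisons. With spike-in centring, 4 members were called for Axl loss in control cells, where 1488 of 15601 genes were called. For the difference 0 members were called then, where 725 genes were called. Axl loss in resistant cells had 1799 genes called with spike-in centring. This centring moved the median of all genes by 0.05, 0.14, 0.20 and 0.29 in the 4 comparisons and by 0.09 for the difference, where 63.4% of called genes were then higher, against 49.7%. It turned the uncalled estimates of S100A11 to 0.081 for Rego resistance in Axl-KO cells and to 0.10 for Axl loss in resistant cells. The cause was not tested.

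Leaving out 1 library at a time gave 2 to 3 members called in each of the 4 comparisons and 0 to 2 for the difference. Of all 15601 genes, 740 to 968, 205 to 519, 540 to 1033 and 219 to 394 were then called in the 4 comparisons. For the difference it was 523 to 922. Of 30 uncalled estimates, 11 changed direction under some alternative. With 1 library left out, those of Rego resistance in SNU449 ranged from -0.31 to 0.44 for S100A2, from -0.035 to 0.43 for S100A3 and from -0.19 to 0.051 for S100A16, and those in Axl-KO cells from -0.034 to 0.71 for S100A2 and from -0.16 to 0.12 for S100A11. For Axl loss in control cells they ranged from -0.22 to 0.52 for S100A2, from -0.072 to 0.18 for S100A16 and from -0.18 to 0.40 for S100P, and in resistant cells from -0.43 to 0.031 for S100A11. For the difference they ranged from -0.10 to 0.65 for S100A2 and from -0.17 to 0.31 for S100A4. Depth per library is unknown, and low members are compressed.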
